A study of Mus musculus with 4 samples.

Results

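The 9 genes described here encode the transcription factor p53 (Trp53), its inhibitor Mdm2, the p53 target Ccng1, and 6 members of the BCL2 family that set whether a cell undergoes apoptosis through its mitochondria. They were taken by gene symbol: Trp53, Mdm2, Ccng1, Bax, Bbc3, Pmaip1, Bcl2, Bcl2l1 and Mcl1. All 9 were present once in each deposited table, out of 19844 genes found in both tables, and all 9 were among the 16269 genes kept for testing. The study addresses how neural progenitor cells act on microglia through the histone variant H2A.Z.2, and its RNA-seq sampled cortex of C57BL/6 embryos at E16.5 (the stage in days after conception). Of the 4 libraries of total RNA, 2 are labelled as a conditional knockout of H2A.Z.2 (cKO, replicates 1 and 2) and 2 as wild type (WT, replicates 1 and 4). The sources used here do not give the Cre driver, the deleted exons or the sex of the embryos, and neither group is described as treated. No label ties a library to its own embryo, culture or litter, so each p-value reflects only how far these libraries spread, part of which may be technical.

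p53 is made continuously and destroyed continuously: Mdm2, a ubiquitin ligase, marks it for degradation, and Mdm2 is itself a p53 target, which closes a feedback loop. When DNA damage or replication stress stabilises the p53 protein, it binds DNA and raises the transcripts of target genes, among them Mdm2, Ccng1 and the killer genes Bax, Bbc3 and Pmaip1. BH3-only proteins such as those made from Bbc3 and Pmaip1 bind some or all of the protective proteins BCL2, BCL-XL and MCL1. They so release BAX and BAK, which open the outer mitochondrial membrane. In developing mouse cortex, mitotic delay and genome damage in progenitors are known to act through p53, and Mcl1 and Bcl2l1 are needed for the survival of progenitors and young neurons.

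Between 16625181 and 17940659 reads per library were assigned to genes. The defining cortical genes Emx1, Tbr1 and Bcl11b were detected in all 4, with a summed level of 625 and 787 CPM (reads per 1000000 assigned reads, after TMM normalisation) in the cKO-labelled libraries and 656 and 783 CPM in WT. H2afv, which encodes H2A.Z.2, was at 128 and 127 CPM in the cKO-labelled libraries, against 136 CPM in WT replicate 1 and 222 CPM in WT replicate 4 (log2 fold change -0.49, SE 0.23). The targeted gene therefore hardly separated the cKO label from WT replicate 1, and the cKO samples are called cKO-labelled libraries. WT replicate 4 stood apart: its summed level of 12 genes of G2 and M phase was 1250.4 CPM, against 607 and 503 CPM in the cKO-labelled libraries and 606 CPM in WT replicate 1. It was the highest or the lowest of the 4 libraries in 73.9% of all genes tested. Among the 9 p53 and BCL2 family genes it held that place in 5, whereas cKO replicate 1 held it in 7, against 45.3% of all genes.

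None of the 9 genes passed 5% FDR between the cKO-labelled libraries and WT (edgeR quasi-likelihood test, Benjamini-Hochberg adjustment over all genes tested), where 0% of all genes tested were called. Bbc3 had an unadjusted p of 0.0478, the only one of the 9 below 0.05, against 1.67% of all genes tested (272 genes by edgeR, 401 by DESeq2, which also called 0 past 5% FDR). The cKO-labelled mean was above WT for 4 of the genes and below it for 5, with a median log2 fold change of -0.04, beside -0.01 over all genes tested. The groups did not overlap in 3 of the 9 (Bbc3 with the cKO-labelled libraries above WT, Mdm2 and Bcl2 with them below), against 31.6% of all genes tested, or 16% with them above and 15.7% with them below. In 7 of the 9 genes the gap between the 2 WT libraries on the log2 scale was larger than the difference between groups, and this held in 72.2% of the 16245 genes with reads in every library. The WT gap was larger than the gap between the cKO-labelled libraries in 3 of the 9, against 65.0% of those 16245 genes. This count turns on near ties. The log2 ratio of WT replicate 4 to WT replicate 1 was -0.26 for Bax and 0.15 for Bcl2. That of cKO replicate 2 to cKO replicate 1 was -0.27 and 0.16.

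**Figure D1:**
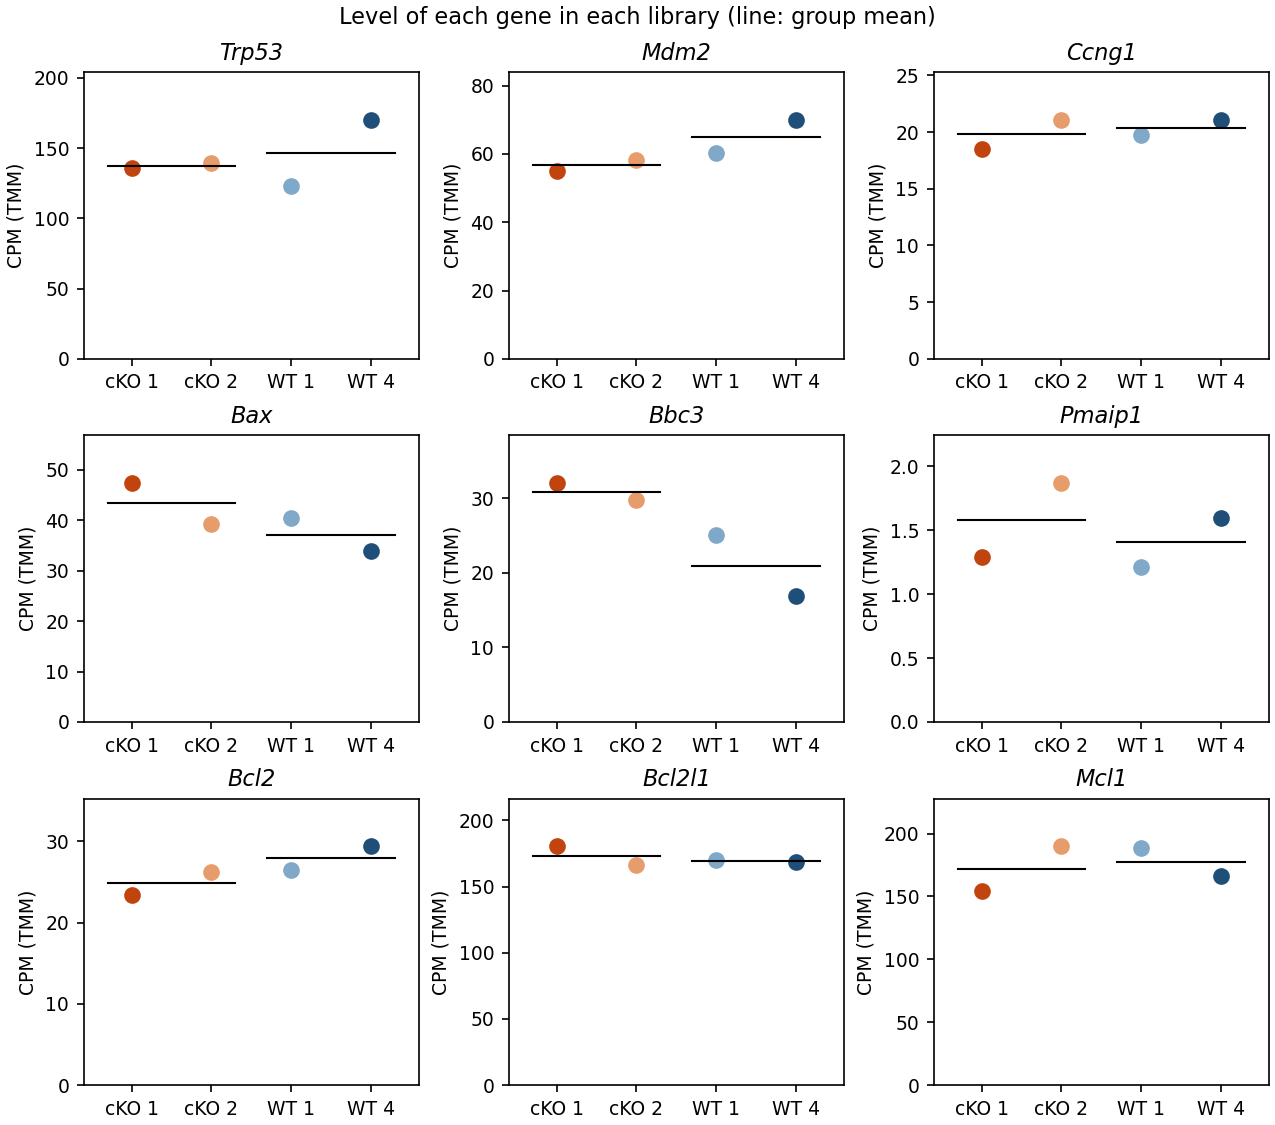
Level of each of the 9 genes in each library, in TMM-normalised CPM (vertical axis from 0), with points for the cKO-labelled libraries (replicates 1 and 2) on the left, WT (replicates 1 and 4) on the right, and lines at the group means. Only Bbc3, Mdm2 and Bcl2 show groups that do not overlap, against 31.6% of all genes tested. For Bcl2 the nearest libraries are at 26.2 CPM (cKO replicate 2) and 26.5 CPM (WT replicate 1). Trp53 spans 123 to 170.0 CPM within WT alone.

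Trp53, which encodes p53 (ENSMUSG00000059552, GRCm38 chromosome 11, 69580359 to 69591873, plus strand), was well expressed, with 2136 to 2876 reads per library. It was at 136 and 139 CPM in the cKO-labelled libraries, against 123 CPM in WT replicate 1 and 170.0 CPM in WT replicate 4. Both cKO-labelled libraries thus lay between the WT libraries, and the groups overlapped. The group means were 138 ± 2.56 CPM in the cKO-labelled libraries and 147 ± 33.1 CPM in WT (SD, n = 2 each), with a log2 fold change of -0.09 (95% confidence interval, CI, -0.51 to 0.33, SE 0.17, edgeR adjusted p = 0.965). Against WT replicate 1 alone the log2 fold change was 0.16, and against WT replicate 4 alone it was -0.30, so its direction depended on which WT library was used. The p53 protein is controlled largely through its stability, which transcript counts do not measure.

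The 3 genes whose levels over the 4 libraries were most like those of Trp53, among 16244 others with reads in every library, were Cpeb3, Mcmbp and Gapdhs. Likeness was the root mean square difference of log2 CPM centred on each gene's mean, and it was 0.0099 for Cpeb3, 0.012 for Mcmbp and 0.014 for Gapdhs. Mcmbp encodes a protein that binds the replicative MCM helicase, and it had 56.9 and 57.3 CPM in the cKO-labelled libraries and 51.6 and 71.2 CPM in WT. With 4 libraries such closeness is common: 123 genes lay within 0.05 of Trp53.

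Mdm2, the p53 inhibitor (ENSMUSG00000020184, chromosome 10, 117688875 to 117710758, minus strand), was at 55.1 and 58.2 CPM in the cKO-labelled libraries, against 60.2 and 69.9 CPM in WT. Both cKO-labelled libraries lay below both WT libraries, by a narrow margin from WT replicate 1. The means were 56.7 ± 2.21 CPM in the cKO-labelled libraries and 65.1 ± 6.90 CPM in WT (SD, n = 2 each), a log2 fold change of -0.20 (95% CI -0.55 to 0.15, SE 0.14, edgeR adjusted p = 0.956). WT replicate 4, the library with the highest Trp53 level, also had the highest Mdm2 level. Its log2 ratios to WT replicate 1 were 0.46 for Trp53 and 0.22 for Mdm2. Of the other p53 targets named above, Bbc3 and Bax were instead lowest in WT replicate 4, at 16.8 and 33.8 CPM. Ccng1 and Pmaip1 were highest in cKO replicate 2. WT replicate 4 was the highest or the lowest library in 73.9% of all genes tested. Whether the Trp53 and Mdm2 levels are linked was not tested. Ccng1, which encodes cyclin G1, a p53-induced partner of a PP2A phosphatase subunit (ENSMUSG00000020326, chromosome 11, 40748552 to 40755311, minus strand), was at 18.5 and 21.1 CPM in the cKO-labelled libraries and 19.7 and 21.0 CPM in WT. Its groups overlapped, with a log2 fold change of -0.04 (95% CI -0.48 to 0.40, SE 0.18), an interval that reaches a 1.32-fold increase and a decrease to 0.715 of the WT level.

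Of the 8 genes with a RefSeq promoter window, 4 held an exact match to the p53 decamer consensus, the repeat unit of the p53 response element, within 250 bases before to 50 bases after an annotated start. The stretches are shown because p53 is known to bind such decamers at its target genes, with the matching 10 bases in capitals, read 5′ to 3′ along the gene's strand (RefSeq, GRCm38.p6).
Trp53: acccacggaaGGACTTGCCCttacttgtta
Mdm2: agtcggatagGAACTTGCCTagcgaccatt
Ccng1: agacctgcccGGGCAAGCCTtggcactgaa
Bax: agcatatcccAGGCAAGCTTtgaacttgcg
The consensus reads the same on both strands, so a match on either strand is counted once. The stretches lie at chr11:69580274-69580303 for Trp53, chr10:117710925-117710954 for Mdm2, chr11:40755452-40755481 for Ccng1 and chr7:45467080-45467109 for Bax, and the matches begin 75, 186, 185 and 201 bases before the start. Of 27025 genes with a window, 9.55% held at least 1 such match. For Ccng1 a second decamer with 1 mismatch directly adjoined the match, and for Bax one with 1 mismatch lay 1 base away. Among all 32851 windows, 1.09% held a match with a second decamer of at most 1 mismatch within 13 bases. In Trp53 and Mdm2 the best-matching second decamer within 13 bases had 3 and 4 mismatches. Bbc3, Bcl2, Bcl2l1 and Mcl1 held no exact match in these windows, which says nothing about other parts of those genes. Binding of p53 was not measured, and the groups overlapped for Trp53, Ccng1 and Bax while Mdm2 lay lower in the cKO-labelled libraries.

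Bbc3, the gene of the BH3-only protein PUMA (ENSMUSG00000002083, chromosome 7, 16308393 to 16318205, plus strand), had the largest group difference of the 9 genes. It was at 32.0 and 29.7 CPM in the cKO-labelled libraries (572 and 510 reads), against 25.04 CPM in WT replicate 1 and 16.8 CPM in WT replicate 4 (434 and 285 reads). Both cKO-labelled libraries lay above both WT libraries, and the WT libraries lay farther from each other than those labelled cKO did. The means were 30.9 ± 1.58 CPM in the cKO-labelled libraries and 20.9 ± 5.79 CPM in WT (SD, n = 2 each), a log2 fold change of 0.56 (95% CI 0.01 to 1.11, SE 0.23), or 1.47-fold. It did not pass 5% FDR (edgeR adjusted p = 0.956). Its size depended on the WT library: without WT replicate 4 the log2 fold change was 0.31 (edgeR adjusted p = 1.00), and without WT replicate 1 it was 0.88 (edgeR adjusted p = 0.0128), in a fit that called 10.9% of all genes and rested on a lone WT library. Against WT replicate 1, the log2 ratios were 0.35 for cKO replicate 1 and 0.25 for cKO replicate 2, and that of WT replicate 4 was -0.57.

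WT replicate 4 had the lowest Bbc3 level, and it was also the library with the highest summed levels of G2 and M phase genes (1250.4 CPM) and intermediate progenitor genes (708 CPM, against 401 and 404 CPM in the cKO-labelled libraries and 448 CPM in WT replicate 1). All 12 of the 12 G2 and M phase genes and all 5 of the 5 intermediate progenitor genes were highest there, and none of these markers was at 0 in any library. WT replicate 4 had the lowest summed level of postmitotic neuron genes, 5721 CPM, against 6865 and 7808 CPM in the cKO-labelled libraries and 6829 CPM in WT replicate 1. Dcx and Map2 were instead lowest in cKO replicate 1, at 856 and 628 CPM, against 901 and 726 CPM in WT replicate 4. The other genes of this list were lowest in WT replicate 4. The part of these marker levels in the Bbc3 difference was not tested. In bulk tissue, fewer cells of a type and less RNA per cell cannot be told apart.

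Bax, which encodes the pore-forming effector of the outer mitochondrial membrane (ENSMUSG00000003873, chromosome 7, 45461697 to 45466898, minus strand), was at 47.3 and 39.3 CPM in the cKO-labelled libraries, against 40.4 and 33.8 CPM in WT. cKO replicate 1 was highest, WT replicate 4 lowest, and the groups overlapped because cKO replicate 2 lay below WT replicate 1. The log2 fold change was 0.22 (95% CI -0.20 to 0.65, SE 0.18, edgeR adjusted p = 0.956). Gm45808, a gene on the same strand in GENCODE M21, shares 192 exon bases with Bax and was listed in neither table, so the Bax count can miss or include reads of that stretch. Pmaip1, the gene of the BH3-only protein NOXA (ENSMUSG00000024521, chromosome 18, 66458604 to 66465550, plus strand), was barely detected, with 23 and 32 reads in the cKO-labelled libraries and 21 and 27 reads in WT. Its levels were 1.29 and 1.87 CPM in the cKO-labelled libraries and 1.21 and 1.60 CPM in WT, with overlapping groups. Exact Poisson 95% intervals, which cover counting error only, ran from 14.6 to 34.5 reads in cKO replicate 1 and from 21.9 to 45.2 in cKO replicate 2, against 13 to 32.1 in WT replicate 1 and 17.8 to 39.3 in WT replicate 4. These intervals overlap, and a difference was not detectable at this depth (log2 fold change 0.17, 95% CI -0.89 to 1.22, SE 0.43).

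Among the other marker lists, choroid plexus genes stood out in cKO replicate 1, the library with the highest Bax and Bbc3 levels. Their summed level was 501 and 54.8 CPM in the cKO-labelled libraries, against 33.7 and 11.3 CPM in WT. Most of this was Ttr, at 466 and 48.3 CPM in the cKO-labelled libraries and 26.7 and 0.473 CPM in WT. Of the 8 choroid plexus genes 5 had enough reads to be tested, 4 of them with a log2 fold change above 0. The remaining tested gene, Otx2, had one of -0.38 and was highest in WT replicate 4, at 8.10 CPM against 6.21 CPM in cKO replicate 1. Kcnj13 was at 0 in cKO replicate 2 and WT replicate 1 and Slc4a5 in WT replicate 4. Microglia genes, all 10 detected in every library, summed to 64.4 and 45.5 CPM in the cKO-labelled libraries and 48.3 and 52.4 CPM in WT. Genes of the hypothalamus and thalamus summed to 27.5 and 12.9 CPM in the cKO-labelled libraries, where Otp and Avp were at 0 in cKO replicate 2, and 33.7 and 66.2 CPM in WT. Summed levels of radial glia genes were 1579.5 and 1414 CPM in the cKO-labelled libraries and 1809.6 and 1823 CPM in WT. Of these 9 genes, 2 had a log2 fold change above 0 and 7 below it, and WT replicate 4 was highest in 4. The similar WT sums hide members that went opposite ways. Vim was at 447 CPM in WT replicate 1 and 666 CPM in WT replicate 4, whereas Tnc was at 167 and 66.7 CPM. Erythroid genes summed to 956 and 762 CPM in the cKO-labelled libraries and 971 and 710 CPM in WT. Of these 8 genes, 4 had a log2 fold change above 0 and 4 below it. The embryonic globin gene Hbb-y was at 0.503 and 0.525 CPM in the cKO-labelled libraries. It was at 2.02 CPM in WT replicate 1 and 72.4 CPM in WT replicate 4. The part of these marker levels in the results was not tested.

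**Figure D2:**
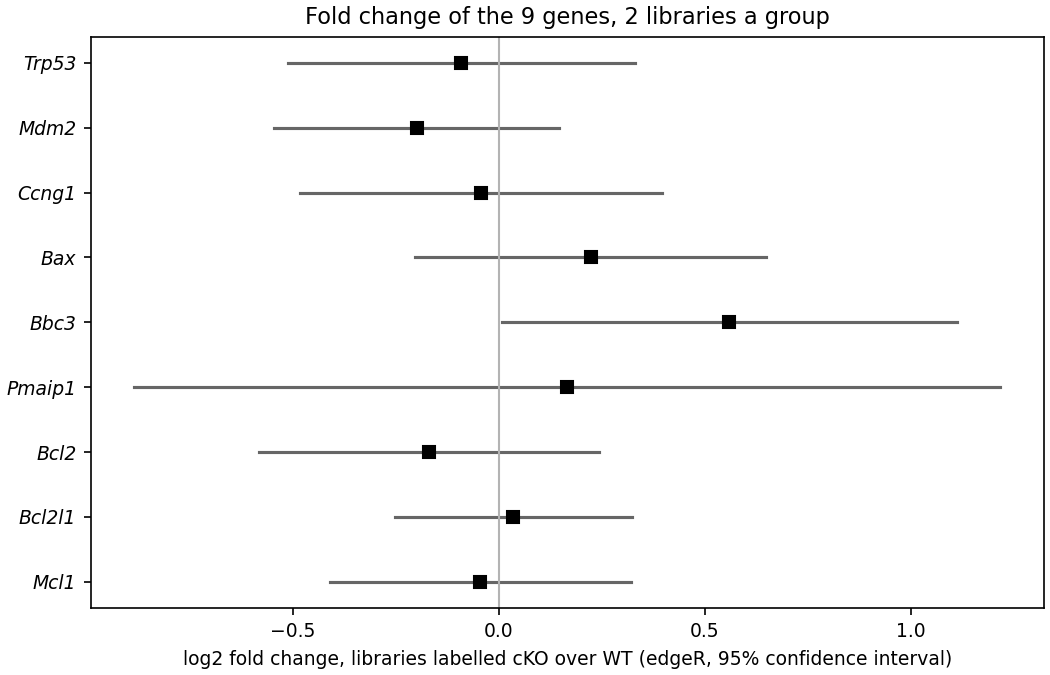
Log2 fold change of each of the 9 genes between the cKO-labelled libraries and WT (horizontal axis, square) with its 95% confidence interval (line) from edgeR, 2 libraries a group. The interval of Bbc3, 0.01 to 1.11, is the only one that leaves out 0, and that of Pmaip1 is the widest, -0.89 to 1.22.

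Among the protective genes, the group means lay closest together for Bcl2l1 and Mcl1. Bcl2, the founding anti-apoptotic member (ENSMUSG00000057329, chromosome 1, 106538178 to 106714274, minus strand), was at 23.4 and 26.2 CPM in the cKO-labelled libraries, against 26.5 and 29.4 CPM in WT. The groups failed to overlap, with cKO replicate 2 at a log2 ratio of -0.02 to WT replicate 1. The log2 fold change was -0.17 (95% CI -0.58 to 0.24, SE 0.17, edgeR adjusted p = 0.956). The antisense gene D630008O14Rik shares 558 exon bases with Bcl2 and was listed in neither table, and the sources used here do not say whether strand was used in counting. Bcl2l1, which encodes the anti-apoptotic BCL-XL and, by alternative splicing, the pro-apoptotic BCL-XS (ENSMUSG00000007659, chromosome 2, 152780668 to 152831728, minus strand), was the most even of the 9. It was at 180.4 and 166 CPM in the cKO-labelled libraries and 169.8 and 169 CPM in WT, a log2 fold change of 0.04 (95% CI -0.25 to 0.32, SE 0.12). That interval spans 0.839-fold to 1.25-fold, and gene counts do not separate its isoforms. Mcl1, which encodes a short-lived protective protein (ENSMUSG00000038612, chromosome 3, 95658788 to 95663176, plus strand), was at 154 and 189.8 CPM in the cKO-labelled libraries and 189 and 166 CPM in WT. Here the cKO-labelled libraries held both the lowest and the highest value, and the log2 fold change was -0.05 (95% CI -0.41 to 0.32, SE 0.15).

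The ratio of Bax to Bcl2 reads within a library, which does not depend on scaling between libraries, came to 2.02 (cKO replicate 1) and 1.5 (cKO replicate 2), against 1.53 in WT replicate 1 and 1.15 in WT replicate 4. cKO replicate 2 and WT replicate 1 were nearly level, so the groups overlapped. The log2 ratio averaged 0.80 ± 0.30 in the cKO-labelled libraries and 0.41 ± 0.29 in WT (SD, n = 2 each), a difference of 0.39 (two-sided exact permutation test, p = 0.667). The smallest p that 2 libraries against 2 can give is 0.333.

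**Figure D3:**
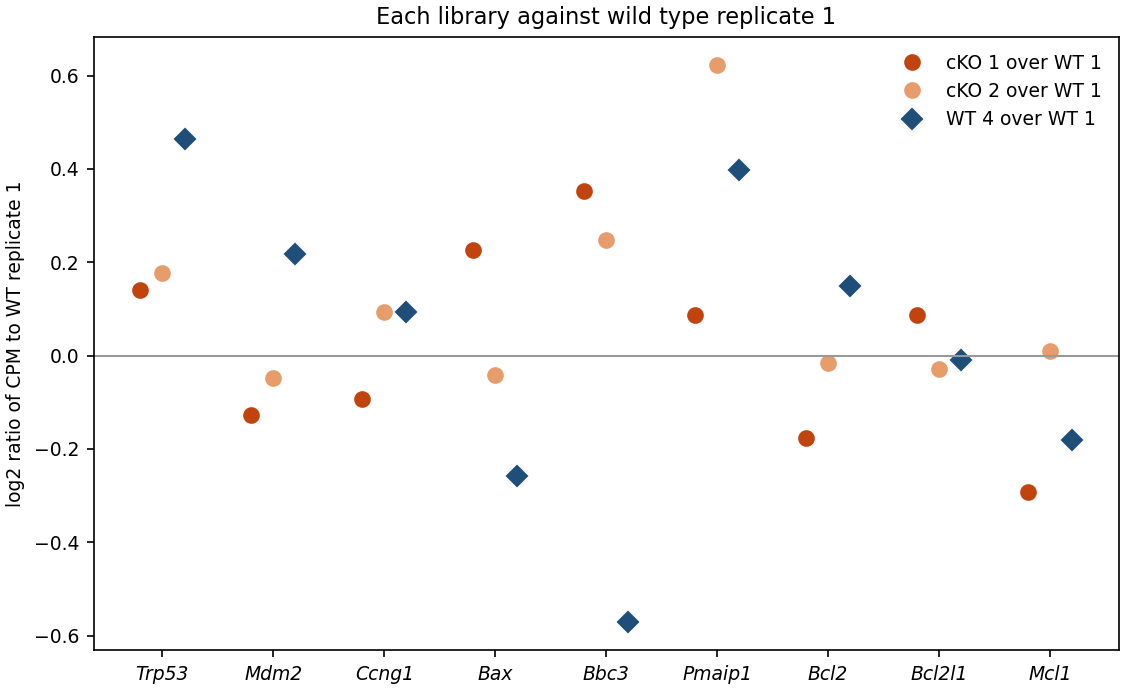
Log2 ratio of the CPM of cKO replicate 1, cKO replicate 2 and WT replicate 4 to WT replicate 1 (vertical axis) for each of the 9 genes. For Trp53, Mdm2, Bbc3 and Bax the point of WT replicate 4 lies farther from 0 than those of both cKO-labelled libraries, at 0.46, 0.22, -0.57 and -0.26.

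Per kilobase of exon, which allows levels to be set between genes, Mcl1 was the highest of the 9, at 50.3 ± 7.39 CPM per kilobase in the cKO-labelled libraries and 51.9 ± 4.61 in WT (SD, n = 2 each). Bcl2l1 followed at 37.8 ± 2.15 in the cKO-labelled libraries and 36.9 ± 0.175 in WT, and Trp53 at 34.0 ± 0.633 and 36.2 ± 8.18. The ranges of Bcl2l1 and Trp53 overlapped in WT, where Trp53 spanned 30.5 to 42.0 CPM per kilobase, and did not in the cKO-labelled libraries. Bax was next at 27.5 in the cKO-labelled libraries and 23.6 in WT. Bbc3 stood above Mdm2 in the cKO-labelled libraries, at 14.5 against 11.1 CPM per kilobase, whereas in WT Bbc3 stood at 9.86 and Mdm2 at 12.8, with WT replicate 1 nearly level at 11.8 for both genes. Ccng1 (5.63 in the cKO-labelled libraries and 5.80 in WT), Bcl2 (2.71 and 3.05) and Pmaip1 (0.577 and 0.514) made up the lower end, and their ranges did not overlap. Of the summed per-length level of the 3 protective genes, Mcl1 and Bcl2l1 took nearly all, and Bcl2 took 2.94% and 3.02% in the cKO-labelled libraries and 3.04% and 3.62% in WT. The length used is the union of all annotated exons of a gene, 9157 bases for Bcl2 and 1576 for Bax, so a long exon that the cortex does not use lowers a gene's value.

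**Figure D4:**
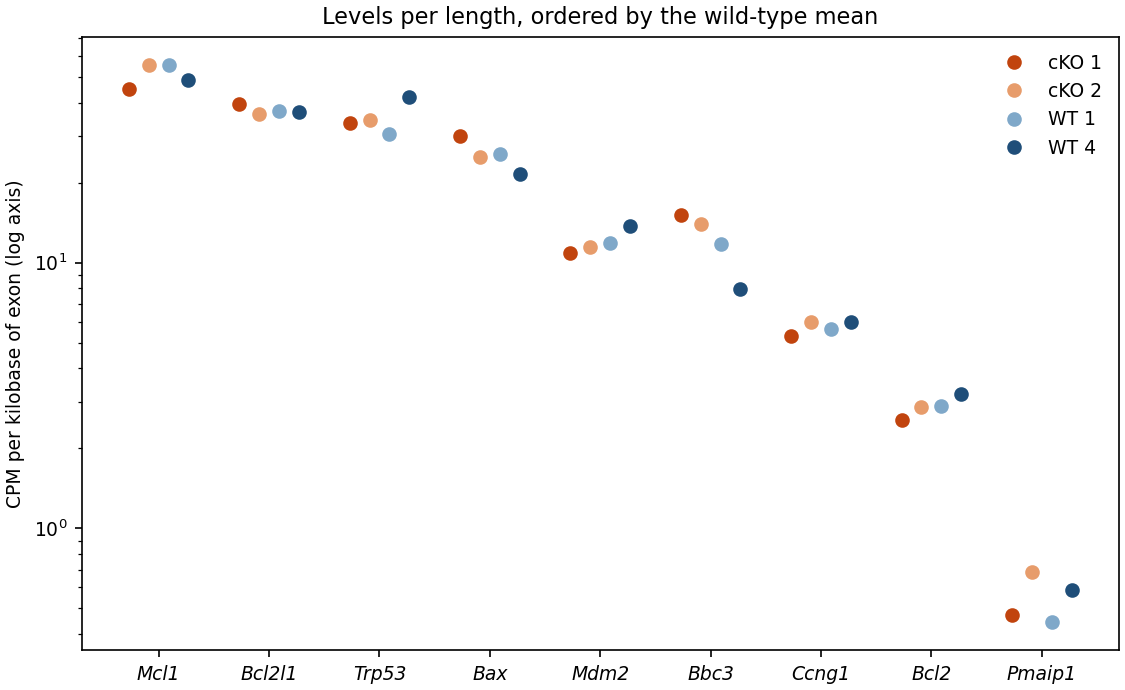
Level of each gene in CPM per kilobase of exon (vertical log axis) in each library, ordered by the WT mean from Mcl1 to Pmaip1, with cKO replicates 1 and 2 left of WT replicates 1 and 4. Bbc3 and Mdm2 change places between the groups, and Pmaip1 lies below 1 CPM per kilobase in all 4 libraries.

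None of the 9 genes was marked significant in either of the authors' deposited tables, which set a lone library against a lone library, where 8.72% of the genes in the table of cKO replicate 1 over WT replicate 4 and 1.62% in that of cKO replicate 2 over WT replicate 1 were. By adjusted p alone, below 0.05, 6 of the 9 passed in the authors' deposited table of cKO replicate 1 over WT replicate 4 (45.1% of its genes passed) and 1 of the 9, Trp53, in that of cKO replicate 2 over WT replicate 1 (13.3% passed). The authors' deposited log2 fold changes of Trp53 had opposite signs, -0.35 in the first table (authors' adjusted p = 3.69e-18) and 0.14 in the second (authors' adjusted p = 0.00992). For Bbc3 the authors' deposited log2 fold changes were 0.90 (authors' adjusted p = 9.40e-18) and 0.21 (authors' adjusted p = 0.116), with the same sign in both. Mdm2 and Bcl2 had log2 fold changes below 0 in each of the authors' deposited tables, at -0.37 and -0.08 for Mdm2 and -0.36 and -0.05 for Bcl2, and Bax had opposite signs, 0.45 and -0.08. With 1 library on each side these p-values compare libraries, not genotypes.

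The wider pathway lists held 85 gene symbols, of which 72 were tested, and 0 passed 5% FDR. Cop1 and Rfwd2 among them are symbols of the same gene, which was tested as Rfwd2. Among 22 tested p53 targets beyond the 9 genes, 9 were higher and 13 lower in the cKO-labelled libraries than in WT, and their median log2 fold change was -0.02. Cdkn1a, the p53-induced inhibitor of cyclin-dependent kinases and the best known arrest target, was at 28.3 and 18.6 CPM in the cKO-labelled libraries and 25.9 and 19.9 CPM in WT, a log2 fold change of 0.04 (SE 0.26), and was named after its values were seen. The 4 targets with the smallest unadjusted p were Btg2, Ckap2, Trp53inp1 and Plk2. Btg2, an anti-proliferative gene that also marks neurogenic progenitors and is 1 of the 5 intermediate progenitor markers above, was at 47.3 and 45.4 CPM in the cKO-labelled libraries, against 59.7 and 86.3 CPM in WT (log2 fold change -0.66, SE 0.20, edgeR unadjusted p = 0.0153, adjusted p = 0.956). Ckap2, a spindle gene, was at 22.2 and 21.9 CPM in the cKO-labelled libraries and 24.4 and 45.0 CPM in WT (log2 fold change -0.66). Trp53inp1, whose product raises p53 activity, had a log2 fold change of -0.39 (SE 0.23), and the kinase gene Plk2 one of 0.30 (SE 0.19). WT replicate 4 was the highest library for Btg2, Ckap2 and Trp53inp1, as it was for the G2 and M phase markers, whose part in these values was not tested. Fas, Cd80, Ptprv and Gdf15 had too few reads to be tested.

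Of 21 tested p53 regulators and relatives, 7 were higher and 14 lower, and their median log2 fold change was -0.17. WT replicate 4 was the highest library in 16, and among all genes tested it was the highest or the lowest in 73.9%. Chek2, a checkpoint kinase that phosphorylates p53, was at 6.54 and 7.12 CPM in the cKO-labelled libraries and 9.46 and 11.2 CPM in WT, so the groups did not overlap (log2 fold change -0.59, SE 0.25, edgeR unadjusted p = 0.0508). Chek1, the checkpoint kinase of S phase, was at 8.11 and 7.0 CPM in the cKO-labelled libraries, against 8.08 CPM in WT replicate 1 and 19.9 CPM in WT replicate 4. Sirt1, a deacetylase of p53, and Hipk2, a kinase of p53, had log2 fold changes of -0.32 (SE 0.21) and -0.62 (SE 0.41). The ribosomal protein genes Rpl5 and Rpl11, whose free products bind Mdm2, each had a log2 fold change of 0.11 and were named after their values were seen.

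**Figure D5:**
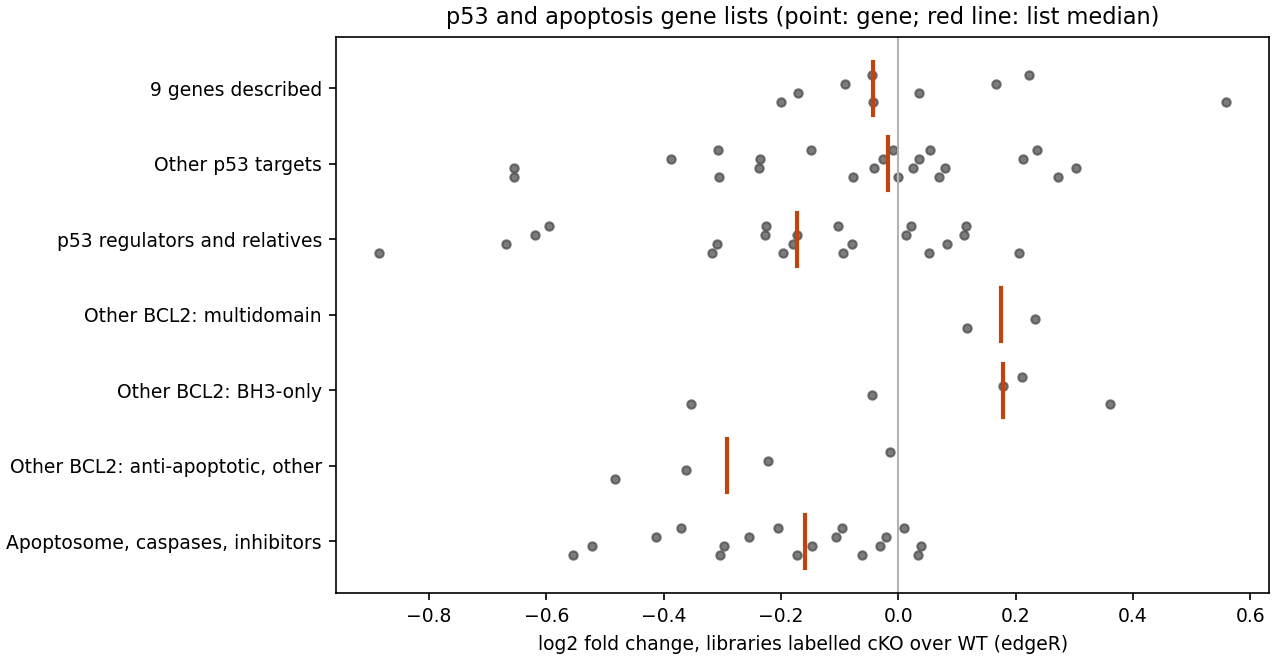
Log2 fold change between the cKO-labelled libraries and WT (horizontal axis, edgeR) for the 9 genes and for each wider list, with a point per tested gene and a red line at the list median. Medians lie between -0.29 and 0.18, and no gene shown passed 5% FDR.

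Of the other 11 tested BCL2 family genes, 5 were higher and 6 lower in the cKO-labelled libraries, the median log2 fold change being -0.01. Of these, 0 had an edgeR unadjusted p below 0.05, against 1.67% of all genes tested, a share too small for this count to tell them apart. The multidomain pro-apoptotic genes Bok and Bak1 had log2 fold changes of 0.23 (SE 0.15) and 0.12 (SE 0.20). Bok was at 67.8 and 65.0 CPM in the cKO-labelled libraries and 61.3 and 51.7 CPM in WT, without overlap. Among BH3-only genes, Bcl2l11, the gene of BIM, was at 13.3 and 10.1 CPM in the cKO-labelled libraries and 12.1 and 17.7 CPM in WT, a log2 fold change of -0.35 (SE 0.28). Hrk, a BH3-only gene of neurons, was at 28.0 and 21.6 CPM in the cKO-labelled libraries and 25.7 and 12.9 CPM in WT, a log2 fold change of 0.36 (SE 0.34), and Bad and Bid had values of 0.18 and 0.21. Hrk, Bad, Bid, Bok and Bak1 were, like Bax and Bbc3, lowest in WT replicate 4, and Bcl2l11 was highest there. That library was the highest or the lowest in 73.9% of all genes tested. The BH3-only gene Pmaip1 was instead lowest in WT replicate 1, at 1.21 CPM against 1.60 CPM in WT replicate 4. Bik had too few reads to be tested. All 4 tested genes of the remaining family list, Bcl2l12, Bcl2l13, Bcl2l15 and the protective Bcl2l2, had log2 fold changes below 0, from -0.48 for Bcl2l12 to -0.01 for Bcl2l2.

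Downstream of the mitochondria, 3 of 18 apoptosome, caspase and inhibitor genes were higher and 15 lower in the cKO-labelled libraries, the median log2 fold change being -0.16, and 8 had the cKO-labelled libraries below both WT libraries, where 15.7% of all genes tested did. Birc5, which encodes survivin, a subunit of the mitotic chromosomal passenger complex as well as an inhibitor-of-apoptosis family protein, was at 35.1 and 34.6 CPM in the cKO-labelled libraries, against 44.1 and 56.1 CPM in WT (log2 fold change -0.52, SE 0.17, edgeR unadjusted p = 0.0211, adjusted p = 0.956). The inhibitors Birc6 and Xiap had log2 fold changes of -0.25 (SE 0.14) and -0.30 (SE 0.18), and Casp2, an initiator caspase gene, -0.30 (SE 0.19), each without overlap between groups. WT replicate 4 was the highest library in 11 of these 18 genes, and in Birc5, Birc6, Xiap and Casp2 among those named. Among all genes tested it was the highest or the lowest in 73.9%. The part of its G2 and M phase marker levels was not tested.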

How the data were processed

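Per the submitters' processing notes, Bowtie2 2.2.3, TopHat2 2.0.12, HTSeq 0.6.0 and build mm9 were named; the positions deposited match GRCm38 (92.1% of 22574 genes identical to GENCODE M21). The authors deposited 2 tables, each of 1 cKO and 1 WT library, with read counts per gene, the same counts scaled to CPM, a fold change (ratio), its log2 and p-values. A line of each had been emptied beforehand, and some items are not reported here. Columns were matched to samples by title. Python 3.11.15 joined the counts by gene identifier, and R 4.3.3 with edgeR 4.0.16 tested them (TMM, filterByExpr minimum count 10, quasi-likelihood test, two-sided, 5% FDR, 2 residual degrees of freedom, biological coefficient of variation 0.194); printed CPM are TMM-normalised. The 4 libraries were distinct, with a chi-square per gene of 6.47 to 41.9 between pairs. The pairs did not follow the labels. WT replicate 1 was at 8.87 from cKO replicate 1 and 6.47 from cKO replicate 2. The cKO-labelled libraries were at 12.4 from each other and the WT libraries at 34.2. Of the p53 and apoptosis genes, those named were the 9 genes and up to 4 with the smallest unadjusted p of each wider list, and others are marked. Cell type markers named singly, such as Dcx, Map2, Otx2 and Tnc, were outside this rule and show how members of a list differed. The genes, lists, tests and alternatives were chosen with earlier results of these data known. Alternatives were DESeq2 1.42.0, other size factors and filters, genes of 1 table added as 0, the deposited table as a block and each library left out.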

Additional observations from a re-analysis of the deposited data

How the results depend on the processing

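The count of genes past 5% FDR was 0 with DESeq2, with relative log expression size factors or library totals, without a filter on low counts or with mean CPM at or above 1, with genes of 1 table added as 0, and with the deposited table as a block. Leaving out 1 library gave 0 to 1849 genes, with 1849 without WT replicate 1, 1 without cKO replicate 1 and 0 in the other 2 fits. Each such fit holds a lone library in 1 group, assumed to vary like the other group. In the 7 settings that kept all 4 libraries, all 63 fold changes of the 9 genes kept their sign and stayed uncalled, moving by at most 0.035 on the log2 scale. With 1 library left out, the log2 fold change of Trp53 ran from -0.30 to 0.16, Ccng1 from -0.14 to 0.048, Pmaip1 from -0.13 to 0.41, Bcl2l1 from -0.023 to 0.092 and Mcl1 from -0.20 to 0.10, each with a change of sign. Bbc3 ran from 0.31 to 0.88, Bax from 0.08 to 0.36, Mdm2 from -0.30 to -0.08 and Bcl2 from -0.25 to -0.09, with no change of sign. Only Bbc3 without WT replicate 1 became called. The log2 ratio of Bax to Bcl2 differed by 0.18 to 0.61 with 1 library left out, and by 0.39 with 0.5 added to each count. The cause of these moves was not tested. No paired analysis was possible by replicate number, because the groups share only number 1; the block used above follows the deposited tables, each of 1 cKO and 1 WT library. Depth limits Pmaip1, at 21 to 32 reads.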
